A study of Mus musculus with 20 samples.

Results

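The genes described here are 7 mouse members of the MS4A family of membrane proteins: Ms4a4a, Ms4a4b, Ms4a4c, Ms4a6b, Ms4a6c, Ms4a6d and Ms4a7. They were taken by symbol from a table of read counts for 34291 genes in hearts of old mice. The difference between the diets in these same libraries was known when they were picked, so that difference is given below as a description. The calls of members counted below are no independent test of it. Of the 7, 6 passed the filter on low counts, which kept 13940 genes in all, and Ms4a4c did not. Rapamycin hearts came from 10 C57BL/6 mice whose food held 14 ppm of rapamycin, an inhibitor of the mTOR kinase. Control hearts came from 10 C57BL/6 mice kept on the control diet. Both groups were 24 months old when put on these diets, ate them for 3 months and were 27 months old at collection. Each heart was powdered whole, and 1 poly(A) RNA library was made per animal. Their sex is not given in the sources used here.

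Total counts were 8525162 to 12458309 per rapamycin library and 7039514 to 10594335 per control library. Libraries are named below by diet and the number in their titles, which runs over 1 to 20 and pairs no animals. Of the 8 cardiomyocyte markers, all were abundant in every library, with summed levels of 42034 to 56322 normalised CPM (counts scaled to a common library size) in rapamycin hearts and 14382 to 51926 in control hearts. The lowest of these sums was that of control 19, which also held 23990 normalised CPM of 5 lung transcripts, against a median of 1.76 over the control libraries. The lung transcripts also exceeded 10 times the median of all libraries in rapamycin 15, control 1 and control 20. For this reason the members' values are also given without control 19.

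MS4A proteins cross the membrane several times, and their genes lie side by side in a single cluster. The family includes Ms4a1, which encodes the B cell antigen CD20, and Ms4a2, the beta chain of the high-affinity IgE receptor of mast cells. Several members are made by macrophages and monocytes, where they sit beside immune receptors and alter their signalling, and in the heart such cells live among the muscle fibres. Mouse Ms4a4b is known from T cells, so the name myeloid need not cover all 7 genes, and the data bearing on this are given after the values.

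Near-identical copies limit what the counts can separate. Over the reading frames of the GENCODE M21 transcripts, Ms4a4b and Ms4a4c were 91.7% identical, and Ms4a6b and Ms4a6c 86.4%. Ms4a6b and Ms4a6d shared 81.8% of aligned bases, and Ms4a6c and Ms4a6d 79.6%. Ms4a4a and Ms4a7 had no pair above 69.9% with any of the others. The reads were 50 bases long, and the design text allows 2 mismatches and unique sites only. Of all 50-base windows of the Ms4a4c transcripts, 27.5% lay within 2 mismatches of another MS4A gene, as did 27.3% of those of Ms4a6c, 21.4% of Ms4a6b, 11.1% of Ms4a4b and 8.94% of Ms4a6d. No window of Ms4a4a or Ms4a7 did. Counts of the 5 genes with shared windows are therefore uncertain in how reads were divided or dropped between copies, and those of Ms4a4a and Ms4a7 are free of this within the family.

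The upstream regions of the paired copies show the same kinship. The 250 bases before the annotated start are printed for both pairs, from RefSeq (build GRCm38.p6, plus strand), with capitals for the longest run of bases that the pair shares. Ms4a6c (chr19:11469118-11469367) and Ms4a6b (chr19:11518309-11518558) shared 48 bases. In Ms4a6c this run ended 2 bases before the start, and in Ms4a6b 71 bases before it. Ms4a4b (chr19:11443308-11443557) and Ms4a4c (chr19:11407411-11407660) shared 20 bases, ending 22 bases before the start of Ms4a4b and 19 before that of Ms4a4c.
Ms4a6c: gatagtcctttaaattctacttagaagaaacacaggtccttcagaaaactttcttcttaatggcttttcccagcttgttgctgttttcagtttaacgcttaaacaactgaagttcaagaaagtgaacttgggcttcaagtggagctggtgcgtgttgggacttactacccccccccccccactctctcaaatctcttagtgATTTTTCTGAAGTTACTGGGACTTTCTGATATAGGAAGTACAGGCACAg
Ms4a6b: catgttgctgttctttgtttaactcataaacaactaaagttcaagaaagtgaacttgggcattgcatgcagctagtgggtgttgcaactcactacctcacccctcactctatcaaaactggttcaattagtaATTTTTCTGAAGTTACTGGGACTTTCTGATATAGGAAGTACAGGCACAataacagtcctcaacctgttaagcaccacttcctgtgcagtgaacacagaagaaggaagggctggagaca
Ms4a4b: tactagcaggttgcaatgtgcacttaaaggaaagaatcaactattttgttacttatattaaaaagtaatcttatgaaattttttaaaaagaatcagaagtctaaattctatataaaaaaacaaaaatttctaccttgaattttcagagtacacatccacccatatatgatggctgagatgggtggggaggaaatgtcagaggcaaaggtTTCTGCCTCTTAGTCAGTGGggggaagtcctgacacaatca
Ms4a4c: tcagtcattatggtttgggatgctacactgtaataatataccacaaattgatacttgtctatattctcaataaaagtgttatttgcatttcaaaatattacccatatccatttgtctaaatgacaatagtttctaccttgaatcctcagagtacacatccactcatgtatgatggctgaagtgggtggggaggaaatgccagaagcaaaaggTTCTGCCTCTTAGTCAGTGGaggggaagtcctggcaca
No other pair of member windows shared a run over 9 bases. Of the 7 genes, 6 matched the promoter table (all but Ms4a6d), with 7 windows because Ms4a7 had 2. Among these windows, those of Ms4a4b and Ms4a4c held the PU.1 core GAGGAA on either strand, which 23.3% of 32851 mouse promoter windows of the same length also held. The RUNX core TGTGGT was found in that of Ms4a4c (14.0% of all windows) and the TATA box TATAAA in that of Ms4a4b (12.4%). None of these 7 windows held the longer PU.1 core GAGGAAGT, which contains the shorter one, the interferon response element or the C/EBP motif TTGCNNAA. A match describes letters in a window and shows no binding.

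All 7 genes had lower mean levels in rapamycin hearts. Levels are CPM after scaling between libraries by edgeR's TMM factors. The 7 genes summed to a lowest, median and highest level of 27.9, 30.5 and 73.7 in rapamycin hearts, against 45.3, 60.9 and 213 in control hearts. The highest rapamycin sum lay above the control median, so the groups overlapped in this total. In edgeR's quasi-likelihood test over all genes, 5 of the 6 tested members were called lower in rapamycin hearts at a Benjamini-Hochberg adjusted p of 0.05 (all but Ms4a4b), where 2.68% of the 13940 genes tested were called lower, 0.689% higher and 3.36% in either direction. Without control 19 the count was 4 of 6, Ms4a6b no longer being called, and 2.33% of the 13977 genes then tested were called lower, 1.05% higher and 3.38% in either direction. These counts come from the contrast the genes were chosen on, and no support is drawn from them.

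**Figure D1:**
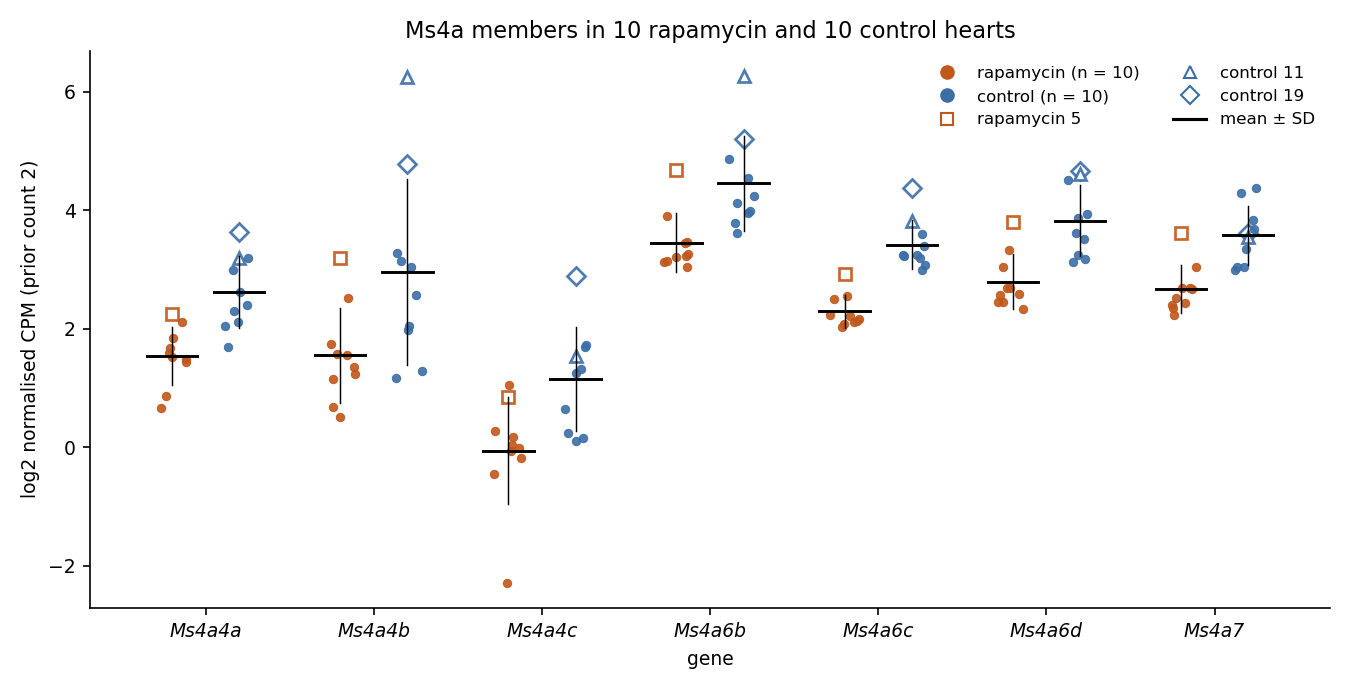
Level of each Ms4a gene in every library, as log2 normalised CPM with a prior count of 2 (vertical axis), for 10 rapamycin libraries on the left and 10 control libraries on the right of each pair; bars are the mean and SD, and open symbols mark rapamycin 5, control 11 and control 19. Ms4a6c has no rapamycin library as high as its lowest control library, while the other genes overlap, and the open symbols lie high for most genes.

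Ms4a6c, which is expressed in mouse monocytes and macrophages, was the single member whose groups did not overlap. Its lowest, median and highest levels were 3.88, 4.35 and 7.41 CPM in rapamycin hearts, against 7.72, 9.27 and 20.5 CPM in control hearts. The closest pair was rapamycin 5, the highest of its group, and control 16, the lowest of its group. Of the genes tested, 8 (0.0574%) had every rapamycin library below every control library. The fitted log2 fold change was -1.18 ± 0.17 (SE), a level 55.8% lower in rapamycin hearts. Without control 19, the highest control library, the groups still did not overlap and the log2 fold change was -1.02 ± 0.13, while 0.0715% of genes were then separated in this way.

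Ms4a4a is a macrophage protein known to associate with the fungal pattern receptor dectin-1, encoded by Clec7a. It had a lowest, median and highest level of 1.37, 2.73 and 4.54 CPM in rapamycin hearts, against 3.02, 5.50 and 12.1 CPM in control hearts. Rapamycin 5 was the highest rapamycin library, control 19 the highest and control 16 the lowest control library. The groups overlapped, with 7 of 10 rapamycin libraries below every control library and rapamycin lower in 94 of the 100 pairs of a rapamycin and a control library (84 of 90 without control 19). The log2 fold change was -1.16 ± 0.25, and -1.01 ± 0.23 without control 19.

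Ms4a7 marks tissue macrophages, such as those at the borders of the brain, in mouse. Its lowest, median and highest levels were 4.51, 5.83 and 12.02 CPM in rapamycin hearts, against 7.73, 11.7 and 20.6 CPM in control hearts. Here control 2 and control 13 (19.3 CPM) were the highest control libraries, and control 19, with 12.01 CPM, lay near its group's median. Apart from rapamycin 5 and rapamycin 9, every rapamycin library lay below every control library, and rapamycin was lower in 93 of 100 pairs (84 of 90 without control 19). The log2 fold change of -0.94 ± 0.20 was the same to 2 decimals without control 19 (-0.94 ± 0.21).

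Ms4a6d is known in mouse macrophages as a partner of the complement receptor VSIG4. Its levels were 4.84, 6.00 and 13.8 CPM (lowest, median and highest) in rapamycin hearts, against 8.47, 13.2 and 24.99 CPM in control hearts. Rapamycin 5 and rapamycin 14 (9.87 CPM) were the 2 rapamycin libraries inside the control range, which was led by control 19 and control 11 (24.2 CPM). Rapamycin was lower in 92 of 100 pairs, and in 82 of 90 without control 19. The log2 fold change was -1.08 ± 0.23, and -0.96 ± 0.22 without control 19.

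Ms4a4c, whose reading frame is closest to that of Ms4a4b, had 0 to 21 counts per rapamycin library and 8 to 59 per control library. It fell short of the filter on low counts and was not tested. In rapamycin 12 it had no count, where 3 counts, the limit a count of 0 allows, would be 0.322 CPM. Its median was 0.802 CPM and its highest level 1.87 CPM in rapamycin hearts, against a lowest, median and highest level of 0.871, 2.24 and 7.16 CPM in control hearts. Rapamycin 14 and control 19 were the highest of their groups, 6 of 10 rapamycin libraries lay below every control library, and rapamycin was lower in 87 of 100 pairs. Without control 19 the highest control level was 3.09 CPM and rapamycin was lower in 77 of 90 pairs. A fit without the filter gave a log2 fold change of -1.41 ± 0.42 over all libraries.

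Ms4a4b is a T cell adaptor described with the costimulatory receptor GITR, the product of Tnfrsf18, in mouse. Its lowest, median and highest levels were 1.22, 2.53 and 8.92 CPM in rapamycin hearts, against 2.03, 6.90 and 75.2 CPM in control hearts. The highest value was that of control 11, followed by control 19 with 27.3 CPM, and control 1 was the lowest of its group. Only 3 of 10 rapamycin libraries lay below every control library, and rapamycin was lower in 80 of 100 pairs (70 of 90 without control 19). The log2 fold change of -2.15 ± 0.61 was -1.999 ± 0.61 without control 19 and -1.26 without control 11. Without both libraries, a choice made after seeing the data, it was -0.74.

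Ms4a6b, described in mouse T cells and macrophages, had a lowest, median and highest level of 7.98, 9.27 and 25.5 CPM in rapamycin hearts, against 12.03, 17.9 and 76.5 CPM in control hearts. Control 11 again held the highest value, with control 19 next at 36.5 CPM, and rapamycin 5 stood above 7 control libraries. With rapamycin 5 and rapamycin 14 set aside, each rapamycin library lay below every control library, and rapamycin was lower in 91 of 100 pairs (81 of 90 without control 19). The log2 fold change was -1.15 ± 0.31, -1.08 ± 0.32 without control 19 and -0.80 without control 11.

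The same few libraries were high across genes. Rapamycin 5, the most deeply sequenced library, was the highest rapamycin library for 6 of the 7 genes, Ms4a4c being the exception. Control 19 was the highest control library for Ms4a4a, Ms4a4c, Ms4a6c and Ms4a6d, control 11 for Ms4a4b and Ms4a6b, and control 2 for Ms4a7. Leaving out rapamycin 5, control 11 and control 19 together, a set chosen after seeing the data, gave log2 fold changes of -1.01 for Ms4a4a, -1.09 for Ms4a4b, -0.86 for Ms4a6b, -1.05 for Ms4a6c, -0.999 for Ms4a6d and -1.11 for Ms4a7. The direction of each tested member was thus the same without them, and the value of Ms4a4b was about the size of the others.

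**Figure D2:**
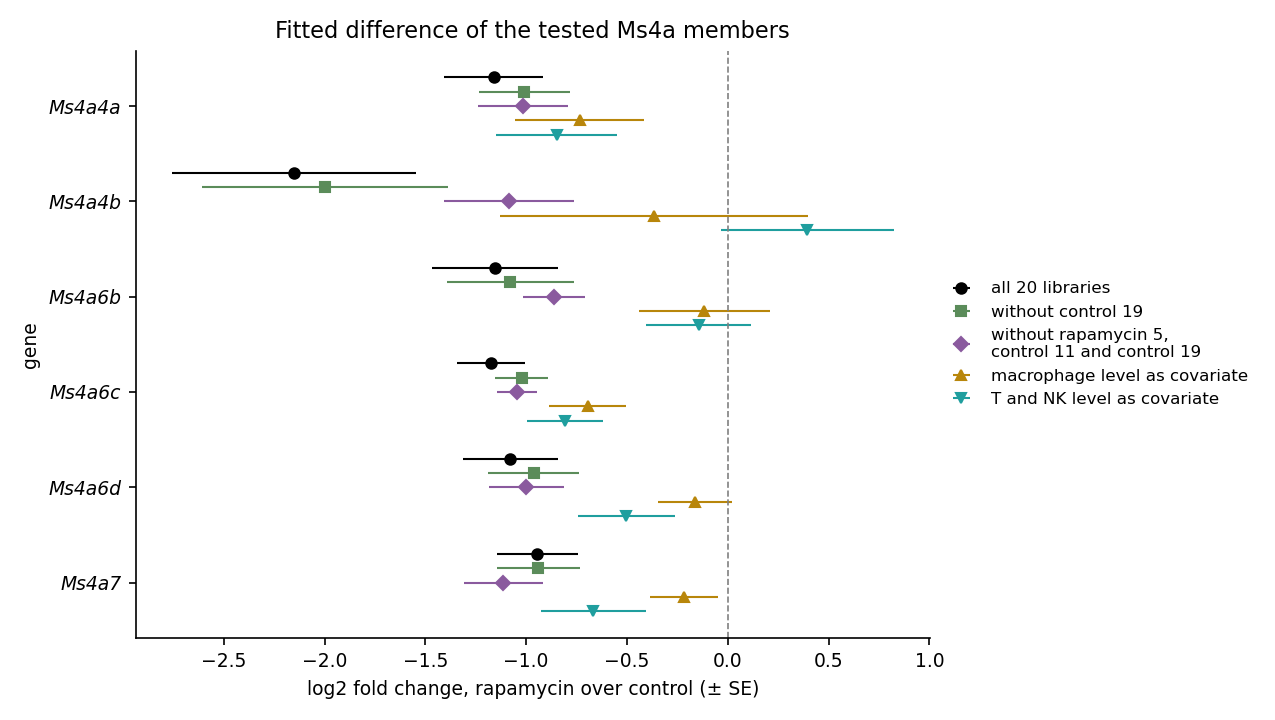
Fitted log2 fold change of rapamycin over control (horizontal axis, bars are the SE) for the 6 tested Ms4a genes in 5 fits, with all libraries, without control 19, without the 3 libraries that stood apart, and with the macrophage or T and NK cell level as a covariate. Estimates lie left of 0, apart from Ms4a4b with the T and NK level as covariate (0.39), and the covariate fits lie nearest to 0.

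Set against transcript length, the order of the members was similar in both diets. Mean levels per kilobase of the longest principal transcript were 5.01 CPM per kb for Ms4a6d in rapamycin hearts, followed by Ms4a7 (4.79), Ms4a6b (4.27), Ms4a4a (3.41), Ms4a6c (2.60), Ms4a4b (0.678) and Ms4a4c (0.519). In control hearts the levels per kilobase were 10.6 for Ms4a6d, 9.59 for Ms4a6b, 9.27 for Ms4a7, 7.73 for Ms4a4a, 5.93 for Ms4a6c, 3.08 for Ms4a4b and 1.43 for Ms4a4c. The upper neighbours were not separated beyond their spread. Ms4a6d exceeded Ms4a7 in 5 of 10 rapamycin libraries, and in control hearts Ms4a6b exceeded Ms4a7 in 4 of 10 libraries, since its mean was raised by control 11. The step that held best was that between Ms4a6c and Ms4a4b, found in 10 of 10 rapamycin libraries and 9 of 10 control libraries. The length used for Ms4a4b is 4750 bases, so a shorter transcript in the heart would move its place.

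The rest of the family moved unevenly. Of 13 other MS4A genes and the related Tmem176a and Tmem176b, 15 rows in all, 6 were tested and 1 fell, where 2.68% of all genes tested were called lower. Ms4a8a, described in mouse macrophages, had 1.74 ± 0.64 CPM in rapamycin hearts and 6.01 ± 5.98 CPM in control hearts (SD, n = 10 each). Its log2 fold change was -1.75 ± 0.40 (edgeR, adjusted p = 0.0237), and -1.29 without control 19 (adjusted p = 0.0211), with 9 of 10 rapamycin libraries below every control library. limma-voom did not call it. Ms4a4d lies between Ms4a6b and Ms4a6d in the cluster and shares 87.9% of its reading frame with Ms4a4c, yet its levels were 25.9 ± 4.57 CPM in rapamycin hearts and 24.7 ± 4.37 CPM in control hearts (SD, n = 10 each; log2 fold change 0.07 ± 0.11, edgeR adjusted p = 0.739). Ms4a1 averaged 6.19 ± 6.30 CPM in rapamycin hearts and 23.6 ± 27.7 CPM in control hearts (SD, n = 10 each), a log2 fold change of -1.95 ± 0.71 that did not pass (edgeR, adjusted p = 0.116). Its counts spread so far among control animals that control 16 had 73.1 CPM and control 11 no count, which allows up to 0.312 CPM. Ms4a14 (-0.53, adjusted p = 0.255), Tmem176a (-0.63, adjusted p = 0.139) and Tmem176b (-0.53, adjusted p = 0.122) did not pass in edgeR's test either. Without control 19 Tmem176a stood at -0.26 and Tmem176b at -0.27. The mast cell gene Ms4a2 had 0 to 2 counts per rapamycin library and 0 to 3 per control library.

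Neighbouring genes did not share one direction. Of the 11 neighbours within or just outside the cluster, 5 were tested and 2 called, where 3.36% of all genes tested were called in either direction. Gm8369, which lies between Ms4a6c and Ms4a6b, fell, with 1.70 ± 0.60 CPM in rapamycin hearts and 3.21 ± 1.25 CPM in control hearts (SD, n = 10 each; log2 fold change -0.90 ± 0.24, edgeR adjusted p = 0.0407). Tmem109, at the edge of the region, rose, with 114 ± 13.7 CPM in rapamycin hearts and 89.6 ± 10.95 CPM in control hearts (SD, n = 10 each; log2 fold change 0.35 ± 0.08, edgeR adjusted p = 0.0213). Prpf19 (0.24), Mrpl16 (0.23) and Ccdc86 (0.01) did not pass. The count of 2 called neighbours dropped to 1 without rapamycin 4, 6, 8, 9, 12, 14, 15 or 18, or control 1, 2, 7, 11 or 16.

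**Figure D3:**
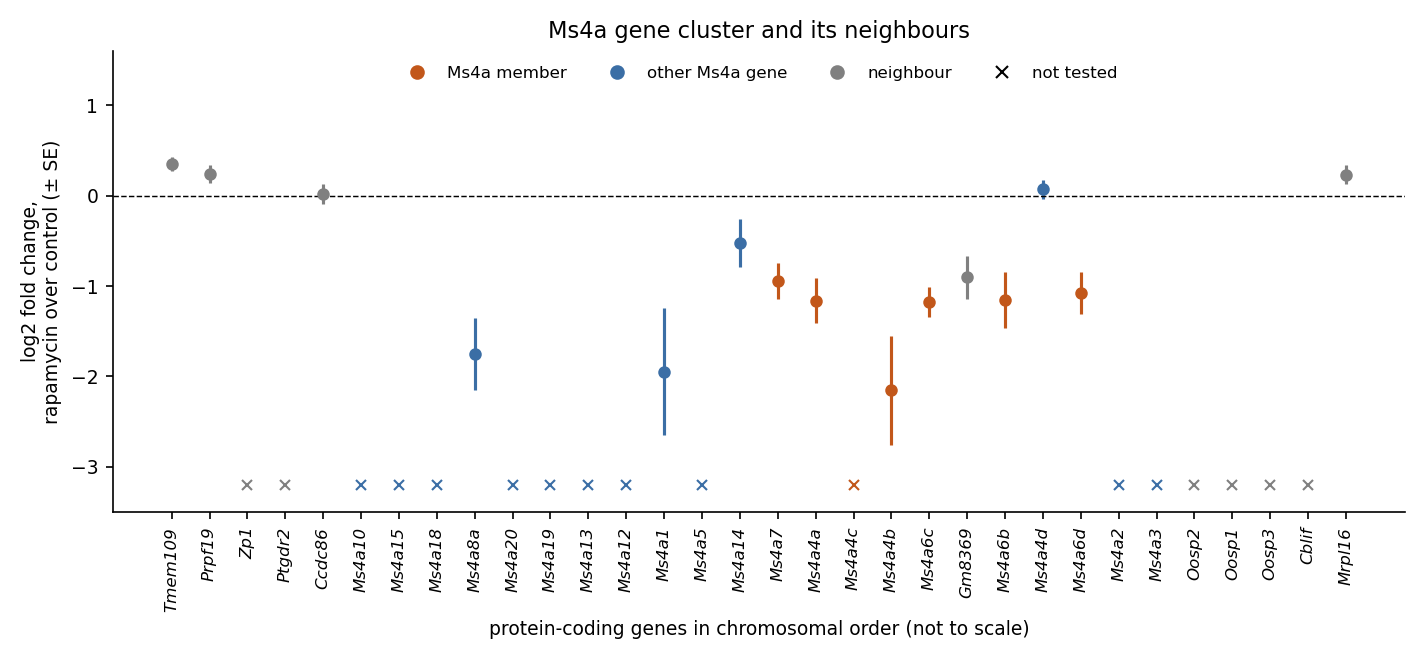
Fitted log2 fold change of rapamycin over control (vertical axis, bars are the SE) for the protein-coding genes of the Ms4a region in their RefSeq order, not to scale; crosses are genes not tested. The 6 tested members lie between -0.94 and -2.15, Ms4a4d among them lies at 0.07, and the flanking genes lie at or above 0.

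Genes listed as linked to MS4A proteins (receptors, adaptors and other signalling genes, counted as partners below) were lower as far as they passed. Of 18 listed, 15 were tested, and 6 fell and none rose, with a median log2 fold change of -0.80, against -0.01 over all genes tested and 2.68% called lower. Vsig4, the partner of Ms4a6d, had 7.61 ± 3.50 CPM in rapamycin hearts and 18.97 ± 7.996 CPM in control hearts (SD, n = 10 each; log2 fold change -1.30 ± 0.26, edgeR adjusted p = 0.0144). Trem2, a lipid receptor of macrophages whose soluble form is linked to the human MS4A locus, had 4.82 ± 1.44 CPM in rapamycin hearts and 8.93 ± 2.97 CPM in control hearts (SD, n = 10 each; log2 fold change -0.88 ± 0.19, edgeR adjusted p = 0.0178). Fcer1g, the signalling chain shared by Fc receptors, fell by 0.80 on the log2 scale (edgeR, adjusted p = 0.0270), and Btk, a kinase downstream of immune receptors, by 0.98 (adjusted p = 0.0334). Fcgr4 and Fcgr3, activating IgG receptors, also fell (edgeR, adjusted p = 0.0448 and 0.0476), but neither passed without control 19 (adjusted p = 0.0684 and 0.0717). Tyrobp, an adaptor of TREM2, passed without control 19 (log2 fold change -0.55, edgeR adjusted p = 0.0418) and not with it (adjusted p = 0.0550). Clec7a (-1.39, adjusted p = 0.0962), Tnfrsf18 (-0.24, adjusted p = 0.380) and Nlrp3 (-0.55, adjusted p = 0.427) did not pass, and Il1b stood at -1.71 with control 19 and 0.24 without it, passing in neither edgeR fit. Without control 19 Clec7a stood at -0.61 and Nlrp3 at -0.03. The count of 6 was 5 without control 19, 3 without rapamycin 6, 9, 14 or 15 or control 2, and 2 without rapamycin 4, 12 or 18.

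Markers of several immune cell types moved with the members. All 16 macrophage markers were tested, and 10 fell and none rose, with a median log2 fold change of -0.59. For this and the cell type lists that follow, 2.68% of all genes tested were called lower and 0.689% higher. The median over all genes was -0.01. Cd68, a lysosomal glycoprotein, had 7.45 ± 1.73 CPM in rapamycin hearts and 14.6 ± 4.39 CPM in control hearts (SD, n = 10 each; log2 fold change -0.96 ± 0.16, edgeR adjusted p = 0.00545). Emr1, which encodes the antigen F4/80, was at 19.8 ± 5.54 CPM in rapamycin hearts and 34.4 ± 12.1 CPM in control hearts (SD, n = 10 each; log2 fold change -0.79 ± 0.18, edgeR adjusted p = 0.0212). Folr2 and Mrc1, markers of resident macrophages, fell by 0.65 (edgeR, adjusted p = 0.0194) and 0.78 (adjusted p = 0.0212). The chemokine receptor gene Cx3cr1 stood at -0.05 (adjusted p = 0.932). The 16 markers summed to 575, 659 and 1094 CPM (lowest, median and highest) in rapamycin hearts, against 800, 1051 and 3714 CPM in control hearts, and no marker had a median under 0.5 CPM. In bulk tissue, fewer cells of a type and less RNA per cell cannot be told apart. The count of 10 was 11 without control 19, and 4 to 6 without any of rapamycin 3, 4, 6, 8, 9, 12, 14, 15 or 18 or control 1, 2, 11 or 13.

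Of 6 monocyte markers, 5 were tested and 4 fell, with a median of -1.42 on the log2 scale and of -1.08 without control 19. Itgal, an integrin chain of leukocytes, fell by 1.27 (edgeR, adjusted p = 0.0132), Ly6c2 by 2.47 (adjusted p = 0.0294) and Plac8 by 1.42 (adjusted p = 0.0325). Ccr2 stood at -0.30 (edgeR, adjusted p = 0.628), and at 0.19 without control 19 (adjusted p = 0.678). The 4 markers that fell also passed without control 19. Summed monocyte levels were 22.5, 31.0 and 55.6 CPM (lowest, median and highest) in rapamycin hearts, against 32.6, 46.6 and 258 CPM in control hearts. The count was 2 without rapamycin 9 or 15 and 1 without rapamycin 4, 6, 12 or 18. Of 15 T and NK cell markers, 10 were tested and 2 fell, at a median of -1.41. Cd2, an adhesion receptor of T and NK cells, had 2.05 ± 1.44 CPM in rapamycin hearts and 7.32 ± 4.15 CPM in control hearts (SD, n = 10 each; log2 fold change -1.83 ± 0.37, edgeR adjusted p = 0.0146). Nkg7, a granule protein gene, fell by 1.92 (edgeR, adjusted p = 0.0457; 0.0716 without control 19), and Il2rb (-1.76, adjusted p = 0.0537) and Cd3g (-1.38, adjusted p = 0.0550) did not pass. Summed T and NK levels were 28.9, 33.5 and 62.9 CPM (lowest, median and highest) in rapamycin hearts, against 37.5, 52.6 and 150 CPM in control hearts, and 4 of the 15 markers had a median under 0.5 CPM. The count of 2 was 1 without control 2, 11 or 19 or rapamycin 3, 4, 6, 9, 12, 14, 15 or 18, and 4 or 5 without rapamycin 5, rapamycin 8 or control 10.

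None of 7 tested B cell markers, 5 mast cell markers or 8 cardiomyocyte markers was called by edgeR. At an unadjusted p under 0.05 there were 6, 2 and 5, limma-voom called none of them either, and DESeq2 called 2, 1 and 1. Without control 19 edgeR called 1 cardiomyocyte marker, Myl2, higher in rapamycin hearts (log2 fold change 0.38, adjusted p = 0.0430). The B cell markers had a median of -1.81, and the smallest adjusted p was 0.0589, for Pou2af1. Of 4 tested dendritic cell markers Cd209a fell (edgeR, adjusted p = 0.0479, and 0.0558 without control 19). S100a8 and S100a9, calcium-binding proteins of neutrophils, fell by 4.81 and 4.95 with control 19 in the fit (edgeR, adjusted p = 0.0316 and 0.0282), and stood at -1.47 and -1.54 without it (adjusted p = 0.160 and 0.128). How far each of these cell types takes part in the lower Ms4a levels was not tested.

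With the mean log2 level of the macrophage list as a covariate, the fitted log2 fold changes of rapamycin over control were -0.73 ± 0.32 for Ms4a4a, -0.70 ± 0.19 for Ms4a6c, -0.22 ± 0.17 for Ms4a7, -0.16 ± 0.18 for Ms4a6d, -0.12 ± 0.33 for Ms4a6b and -0.37 ± 0.77 for Ms4a4b. With the T and NK list as the covariate they were -0.85 ± 0.30 for Ms4a4a, -0.81 ± 0.19 for Ms4a6c, -0.67 ± 0.26 for Ms4a7, -0.50 ± 0.24 for Ms4a6d, -0.14 ± 0.26 for Ms4a6b and 0.39 ± 0.43 for Ms4a4b. Ms4a6c and Ms4a4a kept the largest differences in both fits, and Ms4a4b changed sign in the second. None of these genes passed in either fit (for Ms4a6c edgeR, adjusted p = 0.582 and 0.304). How many of all genes passed in these fits is not given here, so nothing is read from the members not passing. The list levels themselves differed between the diets, at 4.48 ± 0.25 in rapamycin hearts and 5.06 ± 0.34 in control hearts for macrophages, and 1.11 ± 0.55 in rapamycin hearts and 2.08 ± 0.68 in control hearts for T and NK cells (mean log2 CPM, SD, n = 10 each), so these fits share the diet's difference between gene and list.

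Correlations within 1 diet do not use the difference between the diets, although members and lists were chosen with earlier results of these data known. Within each diet the log2 level of each of the 6 tested members was correlated with the macrophage list and with the T and NK list, 24 correlations in all, each with a 2-sided permutation test and adjusted over the 24. Of these, 7 passed by Pearson's r. Ms4a7 followed the macrophage list in rapamycin hearts (r = 0.94, permutation p = 0.00054, adjusted p = 0.00648, rho = 0.83, permutation p = 0.00483, adjusted p = 0.0580, n = 10) and in control hearts (r = 0.75, permutation p = 0.0140, adjusted p = 0.0480, rho = 0.72, permutation p = 0.0233, adjusted p = 0.0932, n = 10). Ms4a6d followed it in rapamycin hearts (r = 0.89, permutation p = 0.00218, adjusted p = 0.0146, rho = 0.75, permutation p = 0.0179, adjusted p = 0.0932, n = 10) and in control hearts (r = 0.83, permutation p = 0.00417, adjusted p = 0.0200, rho = 0.73, permutation p = 0.0201, adjusted p = 0.0932, n = 10). Ms4a6b followed the macrophage list in rapamycin hearts (r = 0.91, permutation p = 0.00565, adjusted p = 0.0226, rho = 0.64, permutation p = 0.0550, adjusted p = 0.103, n = 10).

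In control hearts Ms4a4b and Ms4a6b passed with the T and NK list. For Ms4a4b r was 0.93 (permutation p = 0.00013, adjusted p = 0.00312) and rho 0.89 (permutation p = 0.00121, adjusted p = 0.0290, n = 10), the single relation that passed by rank as well. For Ms4a6b r was 0.85 (permutation p = 0.00243, adjusted p = 0.0146) and rho 0.73 (permutation p = 0.0201, adjusted p = 0.0932, n = 10). With the macrophage list in control hearts Ms4a6b gave r = 0.60 (permutation p = 0.0637, adjusted p = 0.127, rho = 0.68, permutation p = 0.0354, adjusted p = 0.103, n = 10). Ms4a4b and the macrophage list gave r = 0.47 in control hearts (permutation p = 0.173, adjusted p = 0.244, rho = 0.55, permutation p = 0.107, adjusted p = 0.183, n = 10). In rapamycin hearts Ms4a4b passed with neither list. Its r there was 0.67 with the macrophage list (permutation p = 0.0430, adjusted p = 0.0937, rho = 0.28, permutation p = 0.429, adjusted p = 0.515, n = 10). With the T and NK list it was 0.52 (permutation p = 0.124, adjusted p = 0.204, rho = 0.65, permutation p = 0.0494, adjusted p = 0.103, n = 10). The differences between these correlations were not tested. Ms4a7 and the T and NK list gave r = 0.13 in rapamycin hearts (permutation p = 0.722, adjusted p = 0.722, rho = -0.03, permutation p = 0.948, adjusted p = 0.989, n = 10). In control hearts Ms4a7 and that list gave r = 0.44 (permutation p = 0.203, adjusted p = 0.271, rho = 0.53, permutation p = 0.124, adjusted p = 0.199, n = 10). That r was 0.80 without control 11 and control 19. Ms4a4a passed with neither list in either diet, nor did Ms4a6c.

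**Figure D4:**
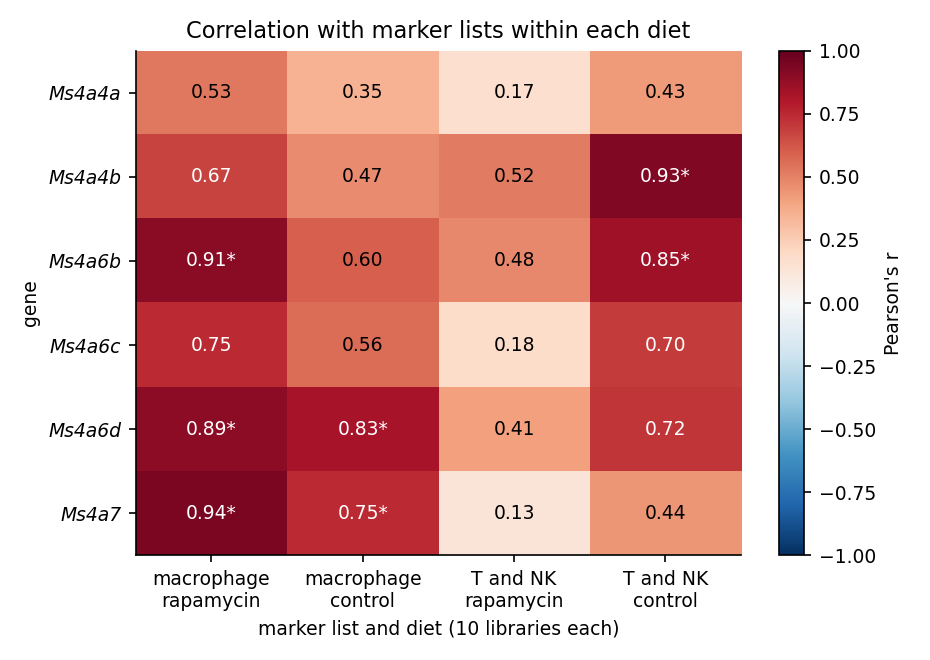
Pearson's r of each tested Ms4a gene (rows) with the mean log2 level of the macrophage or the T and NK marker list (columns), within the 10 libraries of 1 diet; asterisks mark the 7 of 24 with an adjusted p under 0.05. Ms4a7 and Ms4a6d are marked with the macrophage list in both diets, and Ms4a4b with the T and NK list in control hearts.

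These relations rest on few animals. Leaving out the 2 libraries farthest from the median of the list level left none of the 7 past the threshold. With 8 libraries and a narrower range of the list level the threshold is harder to pass. The loss of a call therefore does not show that a relation was absent. Their r was then 0.64 and 0.51 for Ms4a7 with the macrophage list in rapamycin and control hearts, 0.65 and 0.88 for Ms4a6d, and 0.60 for Ms4a6b in rapamycin hearts. With the T and NK list in control hearts it was 0.74 for Ms4a4b and 0.45 for Ms4a6b, where control 11 and control 19 are the 2 libraries left out, and without these 2 Ms4a6b stood at 0.75 with the macrophage list. Without rapamycin 5 alone, r with the macrophage list in rapamycin hearts was 0.81 for Ms4a7, 0.72 for Ms4a6d and 0.59 for Ms4a6b. Without control 19, with 9 control libraries left, the control relations of Ms4a7 (r = 0.77, permutation, adjusted p = 0.0555) and Ms4a6b (r = 0.83, permutation, adjusted p = 0.0555) no longer passed, though r was little changed.

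**Figure D5:**
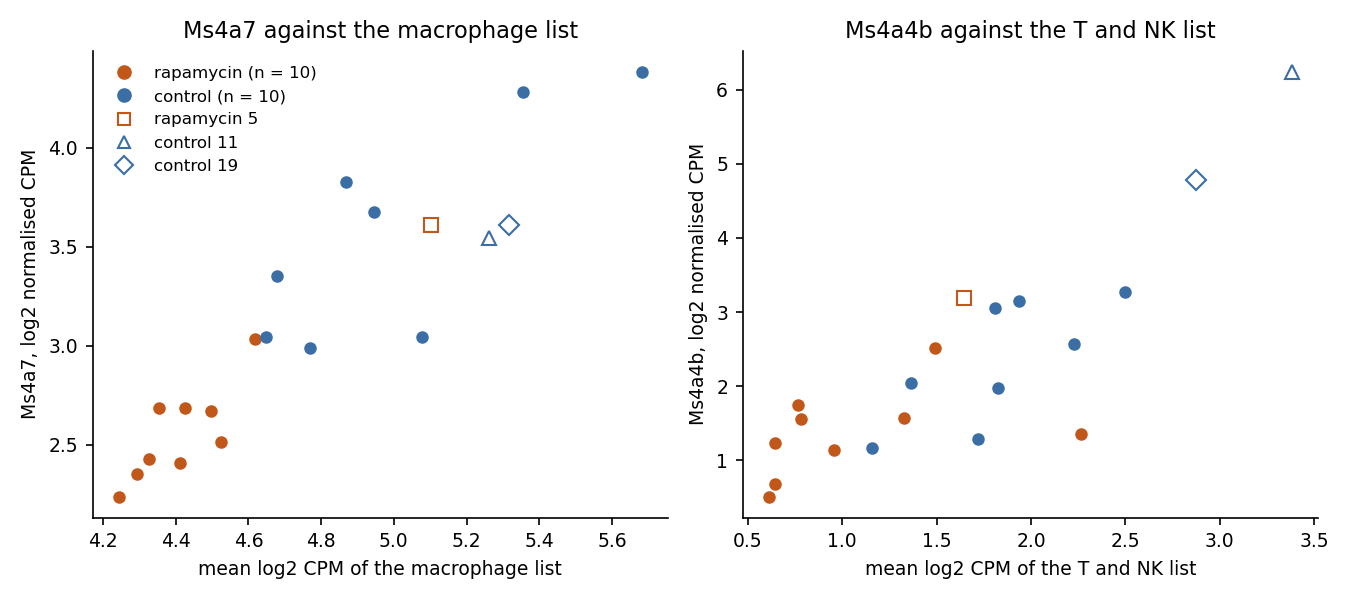
Ms4a7 against the macrophage list (left) and Ms4a4b against the T and NK list (right), one point per library, all in log2 normalised CPM, with rapamycin in orange and control in blue; open symbols are rapamycin 5, control 11 and control 19. Most rapamycin libraries lie toward the lower left of both panels, where some control libraries also lie. Rapamycin 5 lies among the control libraries in the Ms4a7 panel. Control 11 and control 19 form the upper right corner of the Ms4a4b panel.

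Genes most like each member were sought among the 14287 genes that averaged 1 CPM or more, by Pearson's r of log2 levels over 20 libraries after the mean of each diet was subtracted. The values are descriptions, and the libraries that stand apart weigh in them. Ms4a4b was most like Il7r (0.91), a cytokine receptor of lymphocytes, Nkg7 (0.90), Runx3 (0.88), a transcription factor of cytotoxic lymphocytes, Ms4a6b (0.88) and Il2rb (0.85), and the same 5 genes led without control 19. Without rapamycin 5, control 11 and control 19 these values were 0.64, 0.64, 0.68, 0.54 and 0.51. Ms4a7 was most like Emr1 (0.91), Aif1 (0.84), Zcchc6 (0.82), Igf1 (0.81) and Fcgr1 (0.80), of which Emr1, Aif1 and Fcgr1 stand on the macrophage list, and without the same 3 libraries Emr1 stood at 0.89.

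Ms4a6d was most like Laptm5 (0.94), a lysosomal membrane protein of blood cells, then Cd300ld (0.92), Lox (0.91), Arl4c (0.89) and Msr1 (0.88), a scavenger receptor of macrophages. Laptm5 kept 0.90 without the 3 libraries. For Ms4a6b the genes were Cd300ld and Cfb (0.90 each), Il7r and Il2rb (0.89 each) and Arl4c (0.89), so that its 5 genes held some of those of Ms4a6d and some of those of Ms4a4b. Without the 3 libraries these values were 0.77, 0.80, 0.59, 0.63 and 0.76, lowest for Il7r and Il2rb. The genes most like Ms4a4a included Cp (0.84), which encodes ceruloplasmin, 2200002D01Rik (0.81), LOC100504495 (0.80) and Gpx1 (0.79). Ms4a6c was most like Rundc3b (0.90), Cotl1 (0.89), Akirin1 (0.88), Arf6 (0.88) and Pdk3 (0.88), and 1 of these 5 was still among its 5 without control 19. Without the 3 libraries their values were 0.49, 0.51, 0.72, 0.47 and 0.57. Ms4a4c was most like Trim79 (0.79), Irf8 (0.78), a transcription factor of myeloid and B cells, Fyb (0.77), A430084P05Rik (0.77) and Neurl3 (0.75), again with 1 of 5 still present without control 19. Between members the same measure was highest for Ms4a4b and Ms4a6b (0.88) and for Ms4a6b and Ms4a6d (0.86), and lowest for Ms4a4a and Ms4a7 (0.05).

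The authors' deposited table of 700 genes, given in CPM, holds 6 of the 7 members, and Ms4a4c is not among its rows. Its name marks it as a table of differentially expressed genes, out of the 34291 genes counted. It comes from these same libraries, so no support is drawn from its holding the members.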

How the data were processed

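Poly(A) RNA of whole hearts from 20 mice was read as pairs of 50 bases, as the labels and the design text state. The authors deposited raw read counts per gene symbol, and CPM for 700 genes. For the 6 members among these, the CPM equal the counts divided by the column totals. Mapping was to unique sites of MGSCv37, per the series' design text, which gives limits of 2 mismatches, 130 to 300 for the paired distance and 5 reads per mapping. The submitters' processing notes name edgeR. The sources used here do not give the aligner, the counter or the strand setting. Columns were matched to samples by title, and the rapamycin 4 column lacks 1 letter of its title. Each library is a separate animal, and all 90 pairs of libraries within a diet differed by more than sampling noise (chi-square over degrees of freedom of at least 5.72).

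Counts were tested with edgeR 4.0.16 in R 4.3.3 after its filter by expression and TMM scaling, by the quasi-likelihood test of diet over 20 libraries, with no covariate and a Benjamini-Hochberg threshold of 0.05. A fold change is rapamycin over control, and its SE comes from the F statistic. For log2 CPM the prior count was 2. Counting error is large for levels of a few CPM, and limits given cover counting error only. Correlations used permutation tests with 100000 resamples (exact for 9 libraries or fewer). limma 3.58.1, DESeq2 1.42.0, other scalings and filters, covariates and left-out libraries were tried as alternatives. Scripts were tested on simulated data. The members and lists were chosen with earlier results of these data known. The genes named are the members, the other MS4A rows, the 5 most alike to each member, up to 4 of each list with the smallest p and called neighbours. Genes named beyond these, among them Fcgr4, Fcgr3, Clec7a, Tnfrsf18, Nlrp3, Il1b, Tyrobp, Cx3cr1, Ccr2, Prpf19, Mrpl16 and Ccdc86, were named after their values were seen. A few genes that the rule names are not reported here. Promoter windows and gene order come from RefSeq tables (GRCm38.p6), another build than the authors', and transcripts from GENCODE M21.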

Additional observations from a re-analysis of the deposited data

Results flagged for a closer look

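In 18 groups of 10 libraries, each gene's or list's highest and lowest library was compared with the gap to its nearest neighbour relative to the whole range, and 3 stood out beyond Dixon's critical value. Chance flags about 1 in 20 groups. Ms4a4c had a log2 CPM of -2.28 in rapamycin 12, its library with no count, where the median of rapamycin hearts was 0.0103. Ms4a6b had a log2 CPM of 4.68 in rapamycin 5, against a rapamycin median of 3.24. The mean log2 CPM of the macrophage list was 5.10 in rapamycin 5, against a rapamycin median of 4.42, so the same animal stood high in both.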

How the results depend on the processing

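The log2 fold change of all 6 tested members was below 0 in every fit without a covariate. Leaving out 1 library at a time gave -1.27 to -1.01 for Ms4a4a, -2.50 to -1.26 for Ms4a4b, -1.38 to -0.80 for Ms4a6b, -1.27 to -1.02 for Ms4a6c, -1.25 to -0.96 for Ms4a6d, -1.10 to -0.83 for Ms4a7 and, in the 11 such fits where it passed the filter, -1.52 to -1.28 for Ms4a4c. The value of Ms4a4b nearest to 0 was that without control 11. In these 20 fits Ms4a4b and Ms4a6b each missed the threshold 13 times, and Ms4a4a, Ms4a6c, Ms4a6d and Ms4a7 passed each time. Over all genes tested, 165 to 791 were called in the same fits. Without the 4 libraries with lung transcripts 3 members were called (280 of all 14014 genes tested). With limma-voom 4 were called (273 of 13940 genes) and with DESeq2 6 (969 of 13940 genes). All these calls come from the contrast the genes were chosen on, and no support is drawn from them. Without control 11 and control 19 Ms4a4b stood at -0.74. With the macrophage covariate the values were -0.37 for Ms4a4b, -0.12 for Ms4a6b, -0.70 for Ms4a6c, -0.16 for Ms4a6d and -0.22 for Ms4a7. With the T and NK covariate they were 0.39 for Ms4a4b, now above 0, -0.14 for Ms4a6b, -0.81 for Ms4a6c and -0.50 for Ms4a6d. The causes were not tested.

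Of all genes, 469 were called, against 1332 with library totals in place of TMM (96.4% of them lower; the median of all genes moved to -0.13), 969 with DESeq2, 273 with limma-voom, 280 without the lung libraries and 165 to 791 with 1 library left out. Under library totals 7 T and NK, 2 B cell and 2 mast cell markers were called, and under DESeq2 6, 2 and 1, with 1 cardiomyocyte and no neutrophil marker. limma-voom called 5 macrophage, 1 monocyte and 1 T and NK marker, 1 neighbour, and 0 other MS4A, dendritic or neutrophil genes. Without the filter the calls were 5 macrophage, 1 T and NK, 4 neutrophil and 0 dendritic markers and 1 neighbour. Without the lung libraries 3 partners, 1 monocyte and 1 T and NK marker, 1 neighbour and 0 dendritic or neutrophil markers were called. Without control 11 and control 19, a set chosen after seeing the data, the calls were 6 macrophage, 1 monocyte, 1 T and NK, 2 B cell and 0 neutrophil markers and 1 neighbour. Without rapamycin 5 as well they were 4 B cell, 1 cardiomyocyte and 0 neutrophil markers. With 1 library left out the lists had 2 to 9 calls for partners, 4 to 14 for macrophages, 1 to 4 for monocytes, 1 to 5 for T and NK cells, 0 to 2 for B cells and for neutrophils, 0 to 1 for dendritic cells, mast cells and cardiomyocytes, and 1 to 2 for neighbours.

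Of the 24 correlations 7 passed, against 11 with library totals, 5 without control 19, 4 without control 11 and control 19 or without rapamycin 5 (both chosen after seeing the data), 1 by Spearman's rho and 0 without the 2 farthest libraries. None of those that changed sign had passed. Without the 2 farthest libraries r was -0.20 for Ms4a4a and -0.46 for Ms4a6c with the macrophage list in rapamycin hearts, and with the T and NK list -0.14 for Ms4a4a, -0.25 for Ms4a6c and -0.0475 for Ms4a7 in rapamycin hearts and -0.23 for Ms4a4a in control hearts, the same as without control 11 and control 19. Without rapamycin 5 it was -0.14 for Ms4a6c and -0.29 for Ms4a7 with the T and NK list, and rho was -0.0061 for Ms4a4a and -0.0303 for Ms4a7, where r over all libraries and without control 19 was 0.18 for Ms4a6c and 0.13 for Ms4a7. Of the 5 genes most alike, 2 for Ms4a4a, 1 for Ms4a4c, 1 for Ms4a6c, 3 for Ms4a6d and 2 for Ms4a7 remained without control 19. No paired analysis was possible because each library number occurs in only 1 diet. Depth limits Ms4a4c most, at 0 to 59 counts per library.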
